A study of Mus musculus with 18 samples.

Results

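The genes followed here are 10 known targets of the transcription factor NRF2, read in mouse liver: Nqo1, Ephx1, Gclc, Gclm, Slc7a11, Gsr, Srxn1, Txnrd1, Hmox1 and Abcc4. All probes that carry one of these 10 gene names on the array were taken, which gave 19 of its 41174 probes. Of these, 14 probes of 9 genes were well above background on 18 of 18 arrays and none of the 14 was saturated. The remaining 5 probes, 4 of Slc7a11 and 1 of 2 of Abcc4, were well above background on none. Liver RNA came from 18 male CD-1 mice, 1 mouse per array, aged 9 weeks. The 6 control mice ate a powdered diet without bisphenol A, 6 low-dose mice ate the diet with bisphenol A to reach 50 µg/kg/day, and 6 high-dose mice ate it to reach 5000 µg/kg/day, each for 28 days from 5 weeks of age. The doses rest on an assumed food intake, so they are averages of a group and not measured per animal. Bisphenol A is a monomer of plastics with weak oestrogenic activity, and the series asked how these doses alter the liver transcriptome.

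NRF2, encoded by Nfe2l2, is held in the cytoplasm by KEAP1, which marks it for degradation. Electrophiles and oxidants modify KEAP1, NRF2 then accumulates in the nucleus, pairs with a small MAF protein and binds antioxidant response elements in front of its targets. BACH1 competes for the same elements and represses Hmox1 above all. In liver the targets make and recycle glutathione, reduce thioredoxin and peroxiredoxins, detoxify quinones and epoxides, break down haem and export conjugates, and Nqo1, Gclc, Gclm and Srxn1 are commonly read as reporters of NRF2 activity.

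The core of the antioxidant response element, TGACNNNGC (N is any base), was searched on both strands in promoter windows of 300 bases, from 250 before to 50 after each RefSeq start site (assembly GRCm38.p6). Windows were at hand for 7 of the 10 genes, 10 windows in all. The core was present in 5 windows of 4 genes, Gclm, Srxn1, Txnrd1 and Abcc4, and in 12.4% of all 32851 windows of the table. The matches are printed below with their flanking bases, read 5′ to 3′ on the strand of the gene. They show which members carry this spelling of the core next to a start site. Capitals mark the match, and GCNNNGTCA is the same core on the opposite strand.
Gclm: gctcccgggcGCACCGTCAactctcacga
Srxn1: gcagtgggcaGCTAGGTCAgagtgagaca
Txnrd1: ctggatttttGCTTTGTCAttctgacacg
Abcc4, first window: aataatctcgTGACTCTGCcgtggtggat
Abcc4, second window: gccccgagagGCGGGGTCAgggcgggccg
The Gclm match lies in the window chr3:122245307-122245606 (plus strand), from base -134 to base -126 relative to the start site. The Srxn1 match lies downstream of the start, from base 29 to base 37, in the window chr2:152105274-152105573 (plus strand). The Txnrd1 match, from base -92 to base -84, was in 1 of the 3 windows of that gene, chr10:82858956-82859255 (plus strand). Both Abcc4 windows are on the minus strand, chr14:118676882-118677181 with the match from -23 to -15, and chr14:118706170-118706469 with the match from -25 to -17. The windows of Nqo1, Ephx1 and Slc7a11 did not hold these letters. A match of letters is not a measured binding site. Elements farther from the start were not searched, nor were other spellings of the element inside the windows, so a window without a match may still hold one.

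Levels are given as the log2 of the background-subtracted spot intensity minus the log2 of the 75th percentile of that array, so that 0 stands for the 75th percentile, and a difference of 1 for a doubling. The number of arrays limits the precision. That percentile was lower on the control arrays (mean 230.1 ± 43.1 SD, n = 6) than on those of the low dose (295.4 ± 44.0) and high dose (291.8 ± 34.1), in arbitrary units of intensity. Of the hepatocyte markers, Alb was saturated on 18 of 18 arrays and Hnf4a had a mean level of 3.22 in controls, so the markers of the labelled tissue were present. The liver of high-dose mouse 2 stood apart: its summed signal of 13 macrophage markers was 198 times the 75th percentile, against 46.4 to 140 in the other mice, and that of 7 cholangiocyte markers 92.0, against 9.33 to 29.0. In pieces of whole liver, fewer cells of a type and less RNA per cell cannot be told apart.

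None of the 14 member probes differed between any pair of groups at an adjusted p under 0.05 (limma with Benjamini-Hochberg adjustment over 25438 probes, or 25437 between the doses). For low dose against control the smallest adjusted p among members was 0.21, while 0.224% of all probes passed. For high dose against control it was 0.575, and 0% of all probes passed. For high against low dose it was 0.52, and 0.0432% of all probes passed. With the brightest probe standing for each gene, 3 of the 9 genes were higher and 6 lower in each comparison, with median log2 differences of -0.18, -0.11 and -0.11 in that order. The medians over all probes were -0.021, -0.010 and 0.014, and 46.0%, 47.8% and 53.1% of all probes were higher. The same shares apply to the counts of higher and lower genes in the lists below. Without high-dose mouse 2 the median of the 9 genes was -0.041 for high dose against control, and between the doses it was 0.036, with 6 genes higher and 3 lower. Leaving out 1 mouse at a time gave medians from -0.21 (without control mouse 4) to -0.049 (without low-dose mouse 3) for the low dose and from -0.11 to -0.031 (without control mouse 1) for the high dose, below 0 in each case. Without scaling the arrays, which moves the median of all probes to 0.34 in both comparisons with control, the median of the 9 genes was 0.19 and 0.25 in the same order. With normexp background correction, where the median of all probes at the low dose was -0.16, the median of the 9 genes was 0.053. With array weights the median between the doses was 0.0092, with 5 genes higher and 4 lower. With array brightness as a covariate, added after the data were seen, the medians against control were -0.079 and -0.028.

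At an unadjusted p under 0.05, 3 member probes lay above control in the low-dose comparison, against 5.43% of all probes, and 3 lay below, against 6.86% of all probes. The 3 higher probes were all of Srxn1, and the 3 lower ones were 2 of Ephx1 and 1 of Gsr. At the high dose none of the 14 was higher, against 3.01% of all probes, and 4 were lower, against 4.27% of all probes. Those 4 were the 2 Ephx1 probes, Gclc and the same Gsr probe. Between the doses, 1 probe was higher at the high dose, that of Nqo1, against 3.33% of all probes, and none was lower, against 4.33% of all probes. Since probes of 1 gene share their transcript, the 6 probes of the low-dose comparison stand for 3 genes.

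**Figure D1:**
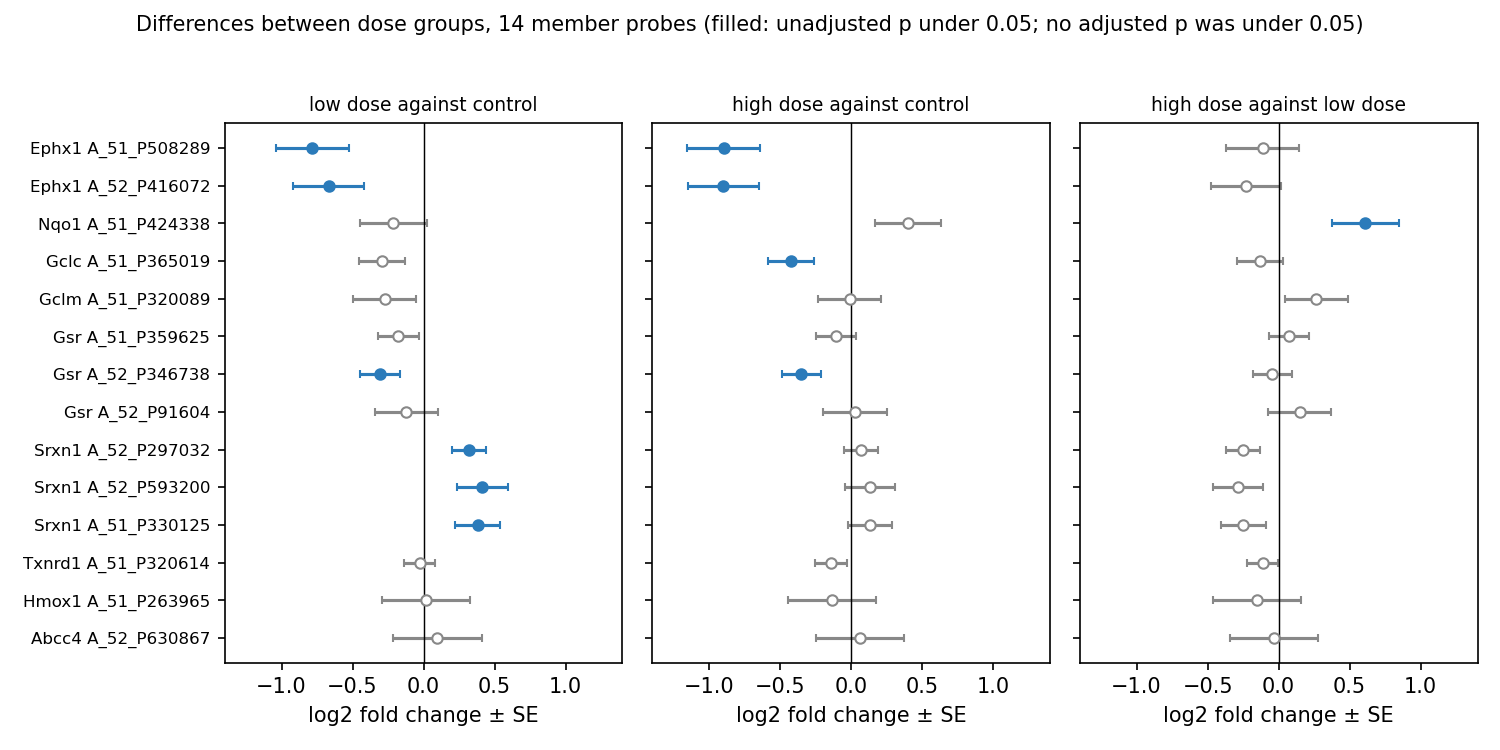
Log2 differences between dose groups for the 14 measured probes of the 9 genes, each with its standard error from limma; filled points have an unadjusted p under 0.05. The Ephx1 probes lie farthest to the left in both comparisons with control, the Srxn1 probes to the right at the low dose, and Nqo1 to the right between the doses.

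Ephx1 encodes microsomal epoxide hydrolase, which opens reactive epoxides to diols and answers to CAR as well as to NRF2. Its brighter probe (chr1:182827133-182827192, mm8, minus strand) ranged in controls from 4.11 to 4.71 with a median of 4.52, at the low dose from 3.30 to 4.13 with a median of 3.69, and at the high dose from 2.70 to 4.55 with a median of 3.61. The low-dose mean differed from control by -0.78 ± 0.26 (SE, fold 0.581, limma adjusted p = 0.21). The high-dose mean differed by -0.90 ± 0.26 (fold 0.537, limma adjusted p = 0.575). At the low dose 5 of 6 mice lay below every control, and at the high dose 4 of 6 did, while high-dose mice 4 and 5, at 4.55 and 4.11, lay inside the control range. The second Ephx1 probe (chr1:182828626-182828685, mm8, minus strand) gave -0.67 ± 0.25 (adjusted p = 0.266) and -0.90 ± 0.25 (adjusted p = 0.575). Both probes followed each other closely between mice, with a Pearson r of 0.95 over 18 mice after the group means were removed.

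The high-dose group was wide for Ephx1. Its brighter probe read 3.81, 2.70, 2.94, 4.55, 4.11 and 3.41 in high-dose mice 1 to 6, an SD of 0.70 against 0.23 in controls and 0.33 at the low dose. Low-dose and control mice on the same slide could be compared on 4 of the 5 slides (arrays scanned together), and the low-dose mean was the lower on all 4, by differences from -1.10 to -0.33. The high-dose mean was also the lower on 4 of 4 slides, with differences from -1.88 to -0.58. Without high-dose mouse 2, the lowest of its group, the high-dose difference was -0.72 (limma adjusted p = 0.779). It stayed below 0 in both comparisons in the 33 alternatives run, and it shrank most under normexp for the low dose, to -0.41 (limma adjusted p = 0.473), and without scaling for the high dose, to -0.54 (adjusted p = 0.191).

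Nqo1 encodes a quinone reductase that carries quinones past the semiquinone stage and is the textbook reporter of NRF2. Its single probe (chr8:110277669-110277728, mm8, minus strand) ranged in controls from -2.64 to -1.57 (median -2.13), at the low dose from -3.13 to -1.75 (median -2.25) and at the high dose from -2.41 to -1.30 (median -1.64). Of the high-dose mice, 5 of 6 read -1.66 or more and lay above every low-dose mouse, and high-dose mouse 5, at -2.41, lay among the low-dose mice. The high-dose mean exceeded the low-dose mean by 0.61 ± 0.23 (fold 1.53, limma adjusted p = 0.52), and on 5 of 5 slides. Against control the low-dose difference was -0.21 ± 0.23 (limma adjusted p = 0.776) and the high-dose difference 0.40 ± 0.23 (adjusted p = 0.735), and all 3 groups overlapped. Without high-dose mouse 5 the difference between doses was 0.75 (limma adjusted p = 0.494), and without low-dose mouse 3 it was 0.45 (adjusted p = 0.723).

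Glutathione synthesis is represented by Gclc and Gclm, the catalytic and modifier subunits of glutamate-cysteine ligase, the rate-limiting enzyme of the path. Gclc (chr9:77579173-77579232, mm8, plus strand) ranged in controls from 5.04 to 5.75 (median 5.21), at the low dose from 4.79 to 5.19 (median 5.03) and at the high dose from 4.21 to 5.24 (median 5.03). The differences from control were -0.29 ± 0.16 (limma adjusted p = 0.49) and -0.43 ± 0.16 (adjusted p = 0.637). The groups overlapped, with 3 of 6 mice of each dose below every control. High-dose mouse 2 had the lowest Gclc of all 18 mice, and without it the high-dose difference was -0.29 (limma adjusted p = 0.81). Without scaling the low-dose difference was 0.071.

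Gclm ranged in controls from 1.00 to 1.45 (median 1.18) and at the high dose from 0.92 to 1.58 (median 1.15). At the low dose 5 mice lay between 0.91 and 1.31 and mouse 5 at -0.34, the only one of 18 below 0. The low-dose difference of -0.27 ± 0.22 (limma adjusted p = 0.675) was -0.021 without that mouse, and the high-dose difference was -0.0099 ± 0.22 (adjusted p = 0.995). The files place this probe at chr3:122251278-122253913 (mm8, plus strand), a span longer than the 60 bases of a probe. Neither subunit of the ligase passed the threshold at either dose.

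Slc7a11 encodes the light chain of the cystine-glutamate exchanger, which brings in the cysteine precursor in many cultured cells and is scarce in healthy liver. Its 4 probes were not well above background on any of the 18 arrays, between -7.55 and -6.45 on the log2 scale, so these data bound its level only from above and give no fold between groups.

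Gsr encodes glutathione reductase, which returns oxidised glutathione to its reduced form at the cost of NADPH. Its 3 probes gave different values. Probe A_52_P346738 (chr8:35163276-35163335, mm8, plus strand) ranged from 2.13 to 2.61 in controls, from 1.72 to 2.55 at the low dose and from 1.82 to 2.47 at the high dose, with 4 of 6 mice of each dose below every control. It gave differences of -0.31 ± 0.14 (limma adjusted p = 0.373) and -0.35 ± 0.14 (adjusted p = 0.643). Probe A_51_P359625 (chr8:35163862-35163921) gave -0.18 ± 0.14 and -0.11 ± 0.14, and probe A_52_P91604 (chr8:35163841-35163900) gave -0.12 ± 0.22 and 0.026 ± 0.22. The latter pair share 39 bases of their positions and followed each other between mice (r = 0.86, n = 18), whereas A_52_P346738 followed them with r of 0.16 and 0.23. At the low dose 3 of the 3 probes had a mean below control, and at the high dose 2 of the 3 did. An unadjusted p under 0.05 was reached by A_52_P346738 alone.

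Srxn1 encodes sulfiredoxin, which restores overoxidised peroxiredoxins. Its brightest probe (A_52_P297032, chr2:151802624-151802683, mm8, plus strand) ranged in controls from 2.93 to 3.46 (median 3.28), at the low dose from 3.40 to 3.67 (median 3.62) and at the high dose from 3.08 to 3.66 (median 3.31). At the low dose 5 of 6 mice lay above every control, and the difference was 0.32 ± 0.12 (fold 1.25, limma adjusted p = 0.271). At the high dose it was 0.069 ± 0.12 (limma adjusted p = 0.929). The high-dose mean minus the low-dose mean was -0.25 ± 0.12 (limma adjusted p = 0.663), and the high dose was the lower on 5 of 5 slides. The other probes, A_52_P593200 (chr2:151800890-151800949) and A_51_P330125 (chr2:151800937-151800996), share 13 bases of their positions. They gave 0.41 ± 0.18 (limma adjusted p = 0.341) and 0.38 ± 0.16 (adjusted p = 0.321) at the low dose, with 4 of 6 mice above every control in each. High minus low dose they gave -0.28 ± 0.18 (limma adjusted p = 0.783) and -0.25 ± 0.16 (adjusted p = 0.784), the high dose being the lower on 4 of 5 slides for each.

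The Srxn1 difference at the low dose was above 0 for the 3 probes under every alternative run. It was not seen on every slide. The brightest probe was higher on 3 of 4 slides and lower on 1, between -0.032 and 0.49, and the other 2 probes were higher on 2 of 4. Without scaling, A_52_P297032 and A_52_P593200 passed the threshold at the low dose (adjusted p = 0.0422 and 0.0447), where 936 probes in all did.

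Txnrd1 encodes cytosolic thioredoxin reductase, which keeps thioredoxin reduced. Its probe (chr10:82327284-82327343, mm8, plus strand) had the smallest standard error of the 14 in these comparisons, and ranged from 4.28 to 4.70 in controls, 4.33 to 4.64 at the low dose and 4.16 to 4.59 at the high dose. The differences from control were -0.028 ± 0.11 (limma adjusted p = 0.949) and -0.14 ± 0.11 (adjusted p = 0.802). The 3 groups overlapped, with 3 of 6 high-dose mice below every control.

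**Figure D2:**
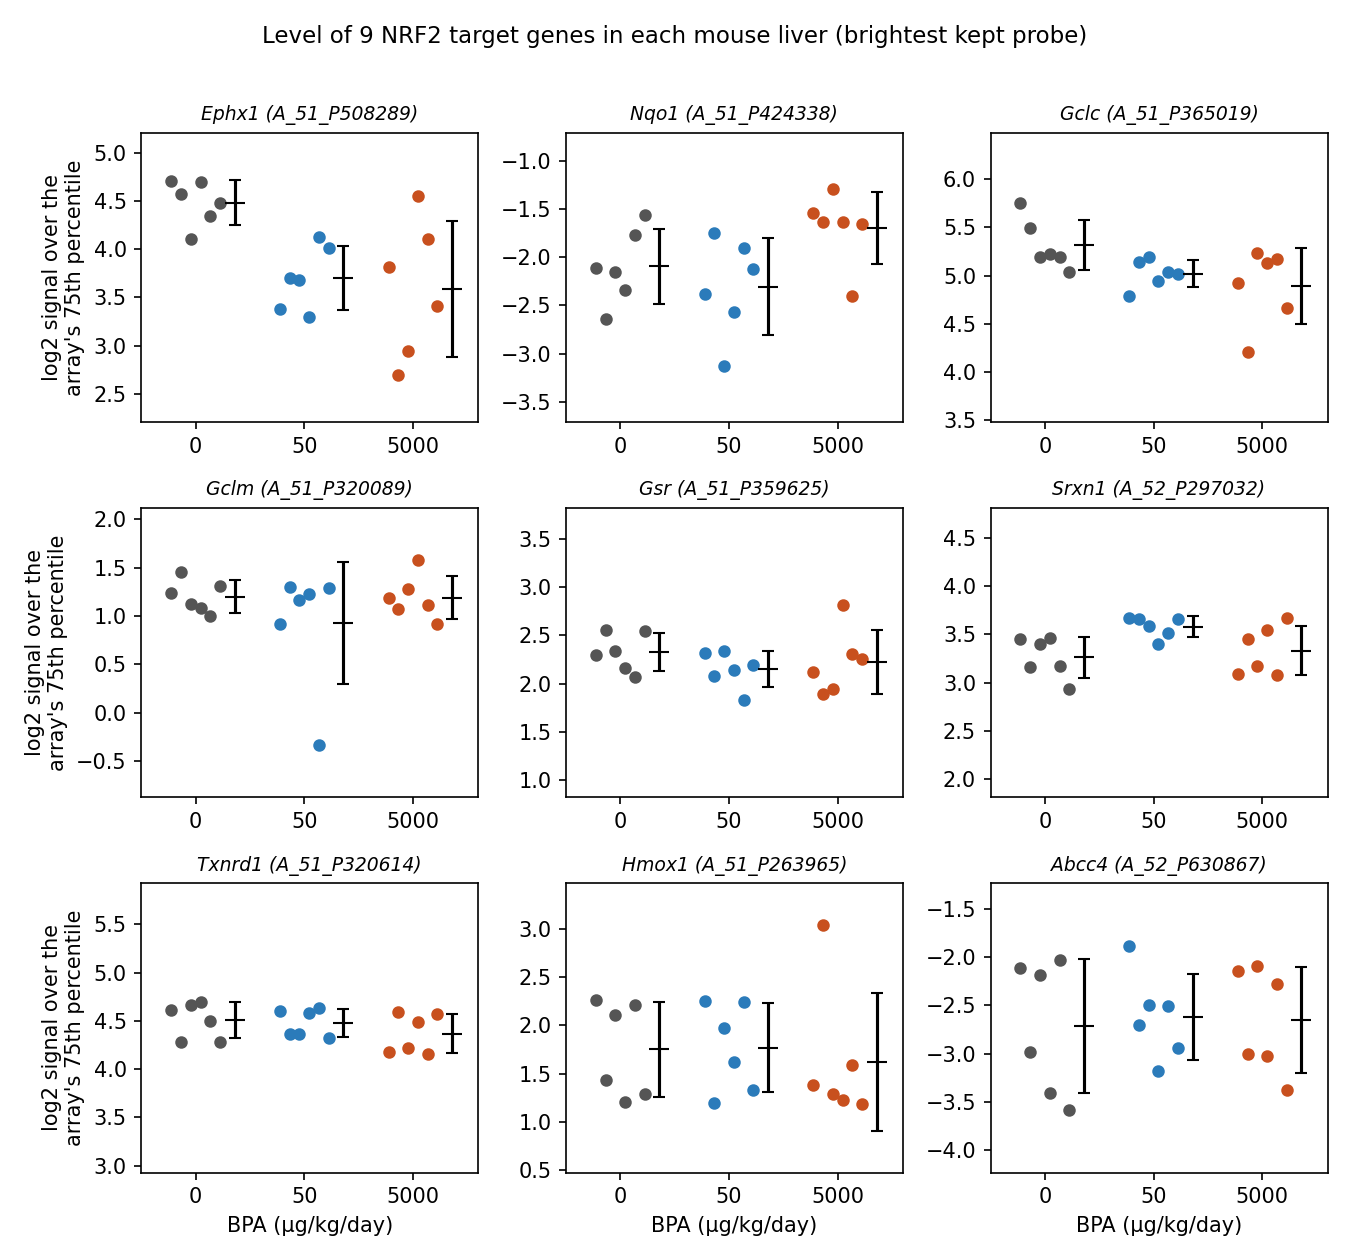
Log2 level of each of the 9 measured genes in each mouse, read from its brightest probe; points are mice 1 to 6 from left to right within a dose of bisphenol A, bars are the mean and SD of 6 mice, and each panel spans 3 log2 units. Ephx1 is lower in most dosed mice, Srxn1 is narrow and high at 50 µg/kg/day, single mice stand apart for Gclm, Nqo1 and Hmox1, and Abcc4 is wide at each dose.

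Hmox1 encodes haem oxygenase 1, which opens haem to biliverdin, iron and carbon monoxide and in liver is high in the macrophages that clear red cells. Its probe (chr8:77996380-77996439, mm8, plus strand) ranged in controls from 1.21 to 2.26 (median 1.77), at the low dose from 1.20 to 2.25 (median 1.80) and at the high dose from 1.19 to 1.59 in 5 mice, with high-dose mouse 2 at 3.05. The differences from control were 0.018 ± 0.31 (limma adjusted p = 0.988) and -0.13 ± 0.31 (adjusted p = 0.948). Without high-dose mouse 2 the high-dose difference was -0.42 (limma adjusted p = 0.835). That mouse also had the highest macrophage and cholangiocyte marker sums given above; whether these bear on its Hmox1 was not tested.

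Abcc4 encodes MRP4, an exporter of conjugated bile acids, steroids and cyclic nucleotides across the basolateral membrane of hepatocytes. Its measured probe (chr14:117366592-117366651, mm8, minus strand) ranged from -3.58 to -2.02 in controls, from -3.18 to -1.88 at the low dose and from -3.37 to -2.10 at the high dose. The group means were -2.71, -2.62 and -2.65, and the differences from control were 0.096 ± 0.31 (limma adjusted p = 0.938) and 0.062 ± 0.31 (adjusted p = 0.976). The pooled SD within groups was 0.57, against a median of 0.29 over all probes, and the SD was 0.70 in controls, 0.45 in low-dose and 0.55 in high-dose mice.

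That spread followed the mouse numbers of the labels. In mice 1 to 6 Abcc4 read -2.11, -2.99, -2.18, -3.41, -2.02 and -3.58 in controls. In low-dose mice it read -1.88, -2.70, -2.49, -3.18, -2.51 and -2.94. In high-dose mice it read -2.14, -3.0, -2.10, -3.03, -2.28 and -3.37. The 9 odd-numbered mice (-2.51 to -1.88) lay above all 9 even-numbered ones (-3.58 to -2.70), with differences of means of 1.22 in controls, 0.65 in low-dose and 0.96 in high-dose mice. Of the probes measured on every array, 0.342%, 85 of 24881, had all odd-numbered mice above all even-numbered ones, and 2 had the reverse. The labels do not say what sets odd from even numbers apart, and the split was noticed after the values were seen, so it has no test.

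Hmox1 followed the mouse numbers in part. In controls odd-numbered mice read 2.26, 2.11 and 2.21 and even-numbered ones 1.43, 1.21 and 1.29. At the low dose they read 2.25, 1.98 and 2.25 against 1.20, 1.62 and 1.33. At the high dose the odd-numbered mice, at 1.39, 1.29 and 1.59, were near the even-numbered mice 4 and 6, at 1.23 and 1.19, and below mouse 2. Apart from Abcc4, no member probe separated odd from even numbers in all mice.

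Markers of some other cells differed by the same numbers. Over all measured probes the odd-numbered mean minus the even-numbered mean had a median of -0.012. The lowest 2.5% lay below -0.46 and the highest 2.5% above 0.59. The medians by marker list were 0.67 (sinusoidal endothelium), 0.63 (macrophage), 0.33 (stellate cell), 0.36 (red cell), 0.24 (lymphocyte), 0.21 (cholangiocyte) and 0.065 (hepatocyte). Of all probes, 0.342% had no overlap with odd-numbered mice higher. The summed signal of 9 sinusoidal endothelium markers was 30.6 to 55.3 times the 75th percentile in odd-numbered mice and 19.4 to 32.5 in even-numbered ones, and 9 of the 9 had the higher mean in odd-numbered mice. Pecam1 and Oit3 of that list did not overlap. Of the macrophage markers, 13 of 13 had the higher mean in odd-numbered mice, with sums of 62.7 to 140 against 46.4 to 198, the highest being high-dose mouse 2. Of the stellate cell markers 9 of 9 did, with sums of 19.4 to 28.6 against 13.8 to 24.1, and Des of that list did not overlap. Of the hepatocyte markers 8 of 12 had the higher mean in odd-numbered mice. Of the red cell markers 2 of 4 had the higher mean in odd-numbered mice, the haemoglobin genes Hba-a1 and Hbb-b1, while Alas2 and Slc4a1 differed by -0.072 and -0.052 on the log2 scale. Their sums, which these haemoglobin genes lead, were 229 to 349 in odd-numbered and 130 to 268 in even-numbered mice. Of the cholangiocyte markers 5 of 7 had the higher mean in odd-numbered mice, but their sum had the higher mean in even-numbered ones (21.6 against 15.9), where high-dose mouse 2 belongs. Of the lymphocyte markers 5 of 6 were higher in odd-numbered mice. No marker of the endothelium, macrophage and stellate cell lists was below background in all mice. The part of these cells in the Abcc4 and Hmox1 values was not tested. With odd or even number as a block, chosen after the data were seen, 0 of the 14 member probes passed in any comparison.

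**Figure D3:**
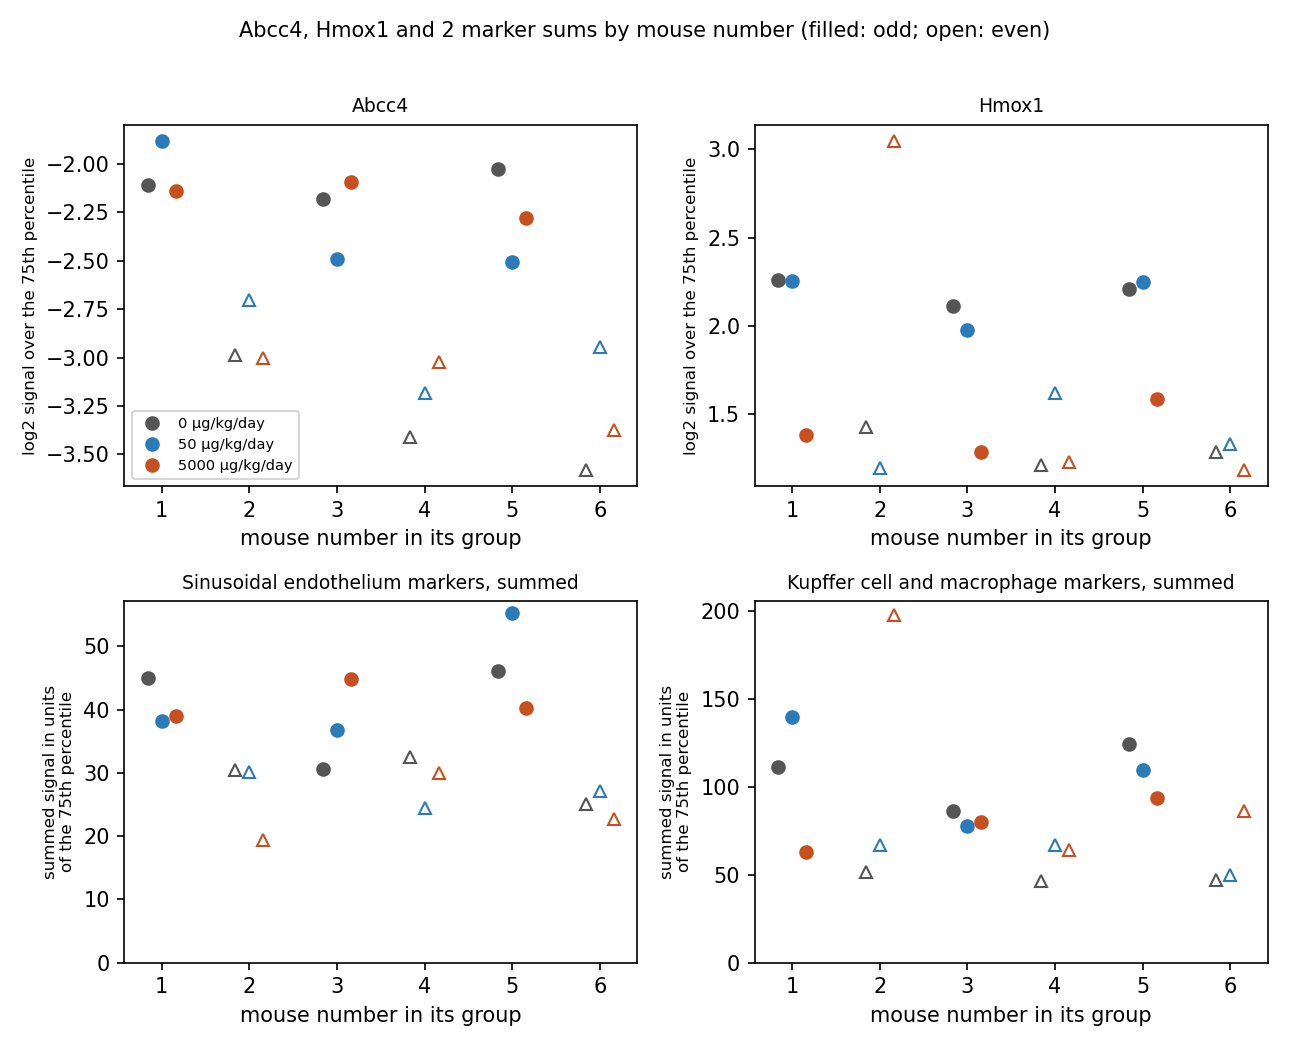
Abcc4 and Hmox1 (log2 level) and the summed signals of sinusoidal endothelium and macrophage markers (linear, in units of the array's 75th percentile, axis from 0) against the mouse number; colours are doses, filled circles odd and open triangles even numbers. Abcc4 alternates at all 3 doses and Hmox1 in controls and at 50 µg/kg/day, and high-dose mouse 2 is the highest for Hmox1 and for the macrophage sum.

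High-dose mouse 2 took an end of the high-dose group for several members at once. It had the lowest value of its group for both Ephx1 probes, for Gclc and for all 3 Gsr probes. It had the highest for Hmox1, Txnrd1 and 2 of the 3 Srxn1 probes. With its macrophage and cholangiocyte sums given above, the part of other cells in these values was not tested. Leaving it out kept the count of called members at 0 in each comparison.

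Between mice the members did not vary as 1 block. Each gene was read here from its brightest probe. Over 36 pairs of the 9 genes, with group means removed and 18 mice, the Pearson r ranged from -0.42 to 0.71. The median was -0.087, and 13 pairs were above 0. None of the 36 passed after Benjamini-Hochberg adjustment. The highest was Srxn1 with Txnrd1, the 2 enzymes of the thioredoxin and peroxiredoxin system (r = 0.71, permutation p = 0.00787, adjusted p = 0.154; Spearman rho = 0.78, p = 0.00389, adjusted p = 0.14). The r was 0.62 without the 2 mice farthest from the median of Srxn1, 0.81 in the 9 odd-numbered and 0.65 in the 9 even-numbered mice. The next was Gclm with Gsr probe A_51_P359625 (r = 0.55, permutation p = 0.00858, adjusted p = 0.154; rho = 0.55, p = 0.021, adjusted p = 0.189). The r was 0.37 without the 2 mice farthest from the median of Gclm. Gsr probe A_52_P346738, which followed A_51_P359625 with an r of 0.16, was not read here.

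The genes that control NRF2 were measured beside its targets, 13 of 13, and none passed the threshold in any comparison. Nfe2l2 itself differed from control by 0.12 ± 0.16 (low dose) and -0.041 ± 0.16 (high dose), and Keap1 by 0.046 ± 0.13 and 0.077 ± 0.12. Bach1, the repressor that shares the elements of NRF2, was 0.60 ± 0.19 higher at the low dose (limma adjusted p = 0.196) and 0.34 ± 0.19 at the high dose (adjusted p = 0.733). Nfe2l1, which encodes the related factor NRF1, differed by -0.32 ± 0.11 (limma adjusted p = 0.235) and -0.15 ± 0.11 (adjusted p = 0.782). The small MAF genes differed from control at the low and high dose by 0.081 and -0.025 (Mafg), by 0.021 and -0.0095 (Mafk) and by 0.11 and -0.14 (Maff). Cul3, whose product builds the ligase that KEAP1 guides, differed by 0.0071 and -0.073, its partner Rbx1 by 0.0021 and -0.058, and Btrc, of another degradation route, by 0.13 and 0.11. Sqstm1, whose product binds KEAP1, differed by -0.13 ± 0.17 and -0.29 ± 0.16, Bach2 by -0.17 ± 0.30 and 0.11 ± 0.30, and Nfe2l3 by 0.075 ± 0.21 and 0.32 ± 0.21. Arrays measure messenger RNA, and the amount of NRF2 protein was not measured.

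Of 39 other known NRF2 targets, 36 were measured and 0 passed in any comparison. The closest was Pgd, which makes NADPH in the pentose phosphate path, 0.67 ± 0.16 higher at the low dose (limma adjusted p = 0.0826), followed by Me1, the cytosolic malic enzyme, at 1.09 ± 0.32 (limma adjusted p = 0.152). Between the doses the same genes were lower at the high dose, Me1 by a difference of -1.25 ± 0.32 (adjusted p = 0.207) and Pgd by -0.60 ± 0.16 (adjusted p = 0.229). With them stood G6pdx, the first enzyme of that path (-1.06 ± 0.31, adjusted p = 0.331), and Txn1, thioredoxin (-0.35 ± 0.12, adjusted p = 0.462). Me1, Pgd and G6pdx are also targets of the lipogenic programme. The spots of 7 of the 36 were saturated on at least 1 array. Among the other 29, 14 were higher and 15 lower at the low dose (median -0.037), 8 and 21 at the high dose (median -0.12), and 12 and 17 between the doses (median -0.036).

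Other lists around the members gave 0 calls as well. Of 25 glutathione and hydrogen peroxide enzymes, 21 were never saturated, 9 higher and 12 lower at the low dose and 3 higher and 18 lower at the high dose, with medians of -0.035 and -0.071. Of all probes, 46.0% and 47.8% were higher in these comparisons. Gss, which completes glutathione, differed by -0.43 ± 0.14 at the low dose (limma adjusted p = 0.184) and Oplah, the oxoprolinase of the same cycle, by -0.54 ± 0.18 (adjusted p = 0.208). Between the doses Gss was 0.39 ± 0.14 higher at the high dose (adjusted p = 0.467). Sod1, Gpx1, Gstp1 and Hp were saturated on 18 of 18 arrays and give no fold. Of 17 genes of haem handling, Hmox1's setting, the 13 never saturated had medians of -0.046 and -0.088 against control, and Alas1, the first enzyme of haem synthesis, was lower at the high than at the low dose (-1.28 ± 0.48, limma adjusted p = 0.509).

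Ephx1 and Abcc4 answer to CAR as well, and the CAR list was read for that reason. Cyp2b9 and Cyp2b10, its usual reporters, differed from control by 2.08 ± 1.57 and 0.80 ± 0.59 in low-dose mice and by 2.04 ± 1.57 and 0.85 ± 0.59 in high-dose mice (limma adjusted p from 0.633 to 0.798). Of the 10 CAR targets never saturated, 6 were higher and 4 lower at the low dose and 8 and 2 at the high dose, and none passed the threshold. Whether CAR bears on the Ephx1 or Abcc4 values was not tested. Of 7 AHR targets 4 were measured, among them Nfe2l2, which is also in the list of NRF2 regulators. Cyp1a2 differed by -0.74 ± 0.21 at the low dose (limma adjusted p = 0.151) and Cyp1a1 by 0.99 ± 0.54 (adjusted p = 0.485). Of 14 ATF4 targets, another route to Slc7a11, 7 were higher and 7 lower at the low dose and 6 and 8 at the high dose, and the closest was Ddit3 at -0.46 ± 0.18 (limma adjusted p = 0.291).

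**Figure D4:**
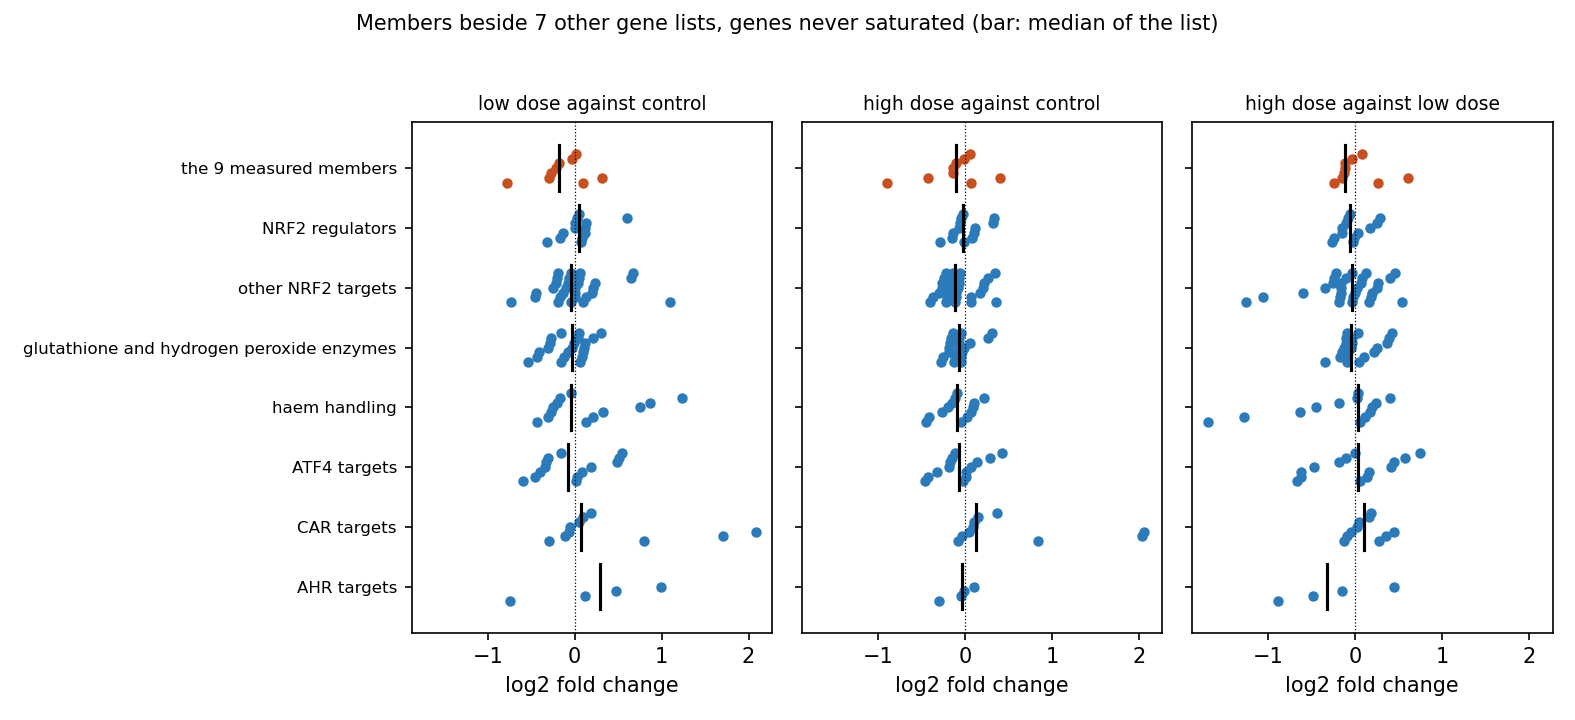
Log2 differences of the 9 measured genes and of 7 other lists in the 3 comparisons, 1 point per gene, leaving out genes saturated on any array; bars are medians. The medians of the members are -0.18, -0.11 and -0.11. In the same order the medians are 0.046, -0.025 and -0.060 for the NRF2 regulators and -0.037, -0.12 and -0.036 for the other NRF2 targets. For the glutathione and hydrogen peroxide enzymes they are -0.035, -0.071 and -0.049. Single genes of each list lie on both sides of 0.

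The hepatocyte markers were read beside the Ephx1 and Gclc values. Of 12 measured, 9 were lower at the low dose (median -0.26) and 10 at the high dose (median -0.25). But 6 of the 12 were saturated on at least 1 array, and saturated spots give no reliable fold. The medians of all 12 are therefore no scale for Ephx1 or Gclc. The 6 never saturated had medians of 0.026 and -0.14. The part of hepatocyte content in the Ephx1 and Gclc values was not tested.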

How the data were processed

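Total liver RNA of 18 mice was labelled with Cy3 and hybridised to 1-colour Agilent mouse arrays. The deposited scanner files give a background-subtracted spot intensity, per the file headers, and Agilent Feature Extraction 9.5 and limma are listed, with no order or role, in the submitters' processing notes. The deposited value table holds log2 values for 22514 probes, with normalisation not given in the sources used here, and served only as an alternative. Of 45018 spots, 43379 are not controls. Here the log2 intensity was set against the 75th percentile of each array, outlier spots were dropped, repeated spots averaged, and 25439 of 41174 probes kept that were well above background on at least 6 of 18 arrays. Groups were compared by probe with limma 3.58.1 (R 4.3.3; lmFit, then eBayes, on the 18 arrays together, with no term but the group). P-values are 2-sided, adjusted by Benjamini-Hochberg over all probes, with a threshold of 0.05. The code was tested on simulated data.

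Gene lists were read from the brightest kept probe of each gene, with symbols updated through RefSeq accessions (assembly GRCm38.p6, names only; 23374 probes matched). All members, their probes and all NRF2 regulators are named, and of each other list up to 4 genes with the smallest p in a comparison. The members and lists were chosen with earlier results of these data known. Correlations between members used 100000 permutations of residuals from the group means, 2-sided. Probe positions are those of the files (mm8), and their place within exons was not analysed. Slides are arrays sharing 1 scan time, 5 in all, scanned on 1 day. Alternatives covered background, scaling, filter, probe choice, variance model, array weights, slide, mouse number and each mouse left out. Odd or even number and array brightness as terms were added after the data were seen.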

Additional observations from a re-analysis of the deposited data

Results flagged for a closer look

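Within each dose group of 6 mice, the highest and lowest mouse of each of the 14 member probes were compared with the nearest other mouse. The gap, as a share of the range of the group, exceeded the Dixon 95% limit for 6 samples in 3 of the 42 groups examined, where chance alone flags about 2.1. Hmox1 in high-dose mouse 2 was 3.05, and the next highest mouse was 1.59. Gclm in low-dose mouse 5 was -0.34, and the next lowest was 0.91. Nqo1 in high-dose mouse 5 was -2.41, and the next lowest was -1.66.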

How the results depend on the processing

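The count of member probes past the threshold was 0 in each comparison under every alternative except arrays without scaling, where it was 2 at the low dose, both of Srxn1. Ephx1 (both probes) against control and the 3 Srxn1 probes at the low dose kept their direction under the alternatives run, 33 for each. Over all probes, 57 passed at the low dose in the reported analysis, but 7 with normexp, 15 with the array median as scale, 936 without scaling, 15 with no filter on dim probes, 127 when a probe had to be above background on all 18 arrays, 15 with the mean of each gene's probes, 142 with only both groups compared, 120 with trended and robust variances, 224 with array weights, 4 with slide as a fixed block and 0 with array brightness as a covariate. Leaving out 1 mouse gave 7 to 109. Between the doses 11 passed, but 1 with normexp, 7 with the array median, 0 without scaling, 4 with no filter, 5 with the brightest probe and 6 with the mean of each gene's probes, 0 with only both groups, 33 with array weights, 0 with the slide as a fixed block, and 0 to 17 leaving out 1 mouse. The cause of these changes was not tested. For mice of the same number in different groups, the correlation of their deviations had a mean of 0.028 over 18 pairs and was over 0.1 in 7. For other numbers, both odd or both even, the mean was 0.0059 over 36 pairs, with 10 over 0.1. With 1 odd and 1 even number it was -0.013 over 54 pairs, with 14 over 0.1. Whether equal numbers pair mice cannot be settled by these means. With the replicate block, 13 probes passed at the low dose and 0 between the doses, 0 of them members.

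The median difference of the 9 genes also moved by over 1.5 times with normexp (-0.054), array weights (-0.062), quantile normalisation (-0.070) and the array median (-0.17) for the high dose, and with slide as a fixed block (-0.042) and the array median (-0.17) between the doses, where leaving out 1 mouse gave -0.15 to 0.036.

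Small differences changed sign, none of them past the threshold. With normexp the low-dose values were 0.29 (Txnrd1), 0.053 (Gsr A_51_P359625), 0.071 (Gsr A_52_P91604), 0.055 (Gclc) and -0.35 (Abcc4), the high-dose values 0.032 (Gclm), 0.040 (Gsr A_51_P359625) and -0.090 (Abcc4), and those between doses -0.013 (Gsr A_51_P359625) and 0.26 (Abcc4). Without scaling the low-dose values were 0.34 (Txnrd1), 0.092 (Gclm), 0.19 (Gsr A_51_P359625), 0.059 (Gsr A_52_P346738), 0.25 (Gsr A_52_P91604), 0.071 (Gclc) and 0.15 (Nqo1), and the high-dose values 0.22 (Hmox1), 0.21 (Txnrd1), 0.35 (Gclm), 0.25 (Gsr A_51_P359625) and 0.0046 (Gsr A_52_P346738). Quantile normalisation gave 0.012 for Gclm at the high dose, and the array median -0.032 for Gsr A_52_P91604. The deposited value table gave -0.14 for Hmox1 at the low dose, -0.001 for Abcc4 at the high dose and 0.11 for Gsr A_52_P346738 between doses. Array weights gave -0.063 (Hmox1, low dose), 0.030 (Gclm, high dose), 0.0092 (Ephx1 A_51_P508289, between doses) and 0.16 (Abcc4, between doses). Slide as a fixed block gave -0.13 for Hmox1 at the low dose and -0.13 for Gsr A_52_P91604 at the high dose, and as a random block -0.022 and -0.0043. Array brightness as a covariate gave 0.089 for Txnrd1 at the low dose, and 0.092 for Hmox1 and -0.39 for Gsr A_52_P91604 at the high dose.

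Leaving out 1 mouse at a time also turned some signs. At the low dose Hmox1 ranged from -0.091 to 0.13, Txnrd1 from -0.074 to 0.010, Abcc4 from -0.077 to 0.23 and Gsr A_52_P91604 from -0.20 to 0.00079. At the high dose Gclm ranged from -0.087 to 0.045, Abcc4 from -0.11 to 0.21 and Gsr A_52_P91604 from -0.099 to 0.15. Between the doses Gsr A_51_P359625 ranged from -0.046 to 0.14, Gsr A_52_P346738 from -0.12 to 0.044, Ephx1 A_51_P508289 from -0.30 to 0.065, Abcc4 from -0.15 to 0.11 and Gclc from -0.20 to 0.0059. Reading 1 value per gene gives no value for single probes. Slc7a11 and 1 Abcc4 probe were too dim to compare, and saturated genes of the other lists give no fold.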
